A study of Mus musculus with 9 samples.

Results

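The 10 genes described here encode the core of the inflammasome and pyroptosis machinery: *Nlrp3*, *Nlrc4*, *Aim2*, *Pycard*, *Casp1*, *Casp4*, *Gsdmd*, *Gsdme*, *Gsdma* and *Ninj1*. They were chosen by name, and all 10 had a row among the 17943 genes of the count table. Bulk RNA-Seq was performed on skin from 5 control and 4 *Supt6*-KO mice, taken on day 10 after the last tamoxifen injection. The *Supt6*-KO mice carried K14-CreERT and floxed *Supt6* alleles and received tamoxifen during the first telogen, the resting phase of the hair cycle. The sample labels call the controls wild-type, whereas the study's methods describe *Supt6* fl/fl mice given corn oil. The effects of Cre, tamoxifen and *Supt6* loss therefore cannot be told apart in this design. The K14 promoter drives Cre in keratin 14-expressing epithelium, so dermal, muscle and immune cells in the whole skin are not its targets. The libraries held 29627341 to 30967107 estimated read counts per mouse, and ages are not given in the sources used here.

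Inflammasomes are cytosolic complexes in which a sensor recognizes a microbial or danger signal, the adaptor ASC (encoded by *Pycard*) polymerizes, and caspase-1 is activated. Caspase-1 matures IL-1β and IL-18 and cleaves gasdermin D, whereas caspase-11, the product of mouse *Casp4*, recognizes cytosolic lipopolysaccharide and also cleaves gasdermin D. The freed gasdermin fragment forms membrane pores, and NINJ1 then drives rupture of the plasma membrane. These proteins are switched on after translation, so transcript levels do not show whether an inflammasome was active.

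Promoter stretches of *Aim2* and *Casp4* are shown because only these members held an NF-κB-type motif, searched as GGGNNTTTC on both strands. Windows of 250 bases upstream of RefSeq transcription starts (GRCm38.p6) were found for 8 of the 10 members, all but *Gsdmd* and *Gsdma*. The *Aim2* match lies 146 to 154 bases before the RefSeq start, at chr1:173420450-173420458, and falls in an intron of a longer *Aim2* transcript in GENCODE M21. *Casp4* held 2 matches, and the more upstream lies 85 to 93 bases before its first RefSeq start, at chr9:5308756-5308764. Printed 5′ to 3′ on the forward strand are chr1:173420404-173420503 and chr9:5308728-5308827, with the matches in capitals; the second ends just before the GENCODE start of *Casp4*.
*Aim2* promoter: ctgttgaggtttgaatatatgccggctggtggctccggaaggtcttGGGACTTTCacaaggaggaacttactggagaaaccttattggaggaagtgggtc
*Casp4* promoter: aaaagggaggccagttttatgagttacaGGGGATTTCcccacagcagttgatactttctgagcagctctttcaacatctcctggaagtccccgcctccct
The NF-κB-type motif occurred in 4.35% of the 27025 genes with such a window. An AP-1-type motif (TGANTCA, in 7.82% of genes) and an interferon-response-type motif (GAAANNGAA, in 8.18%) were found in none of the 8 members. A match describes letters in these windows only.

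*Supt6*, the targeted gene, had 2786, 2068, 2297, 3370 and 3798 reads across the controls, compared with 684, 503, 478 and 791 reads across the *Supt6*-KO mice. The groups did not overlap, and the log2 fold change was -1.57 (standard error, SE, 0.18, adjusted p = 1.3e-05 by the quasi-likelihood test of edgeR). On the skin site, the labels name ear and the methods dorsal skin. Cartilage markers summed over 8 genes stood at 331 to 812 normalised read counts (CPM, scaled to a common library size) in the controls and at 47.9 to 58.7 CPM in the *Supt6*-KO mice. *Acan* (aggrecan) was the most abundant of them in the controls and *Cnmd* (chondromodulin) in the *Supt6*-KO mice, and *Matn1* had 0 counts in 8 of the 9 mice. Keratinocyte markers were abundant in every library, led in the suprabasal list by *Krt10* in both groups and in the basal list by *Krt5* in the controls and *Krt14* in the *Supt6*-KO mice.

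*Supt6*-KO mouse 4 stood apart from the other libraries. On the second principal component of log2 CPM, which carried 7.76% of the variance, it lay at 59.5, and the other 8 mice lay between -29.5 and 20.1. Its suprabasal keratinocyte markers summed to 20438 CPM, against 40672 to 42963 CPM in the other *Supt6*-KO mice. The leading counts are therefore also given without this mouse.

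In *Supt6*-KO skin, 6 of the 10 genes were higher and none was lower. *Aim2*, *Nlrp3*, *Pycard* and *Casp4* rose 4.73-fold to 7.41-fold, and *Casp1* and *Ninj1* rose 2.07-fold and 1.93-fold. The 3 gasdermins *Gsdmd*, *Gsdma* and *Gsdme* and the sensor *Nlrc4* did not pass the test. A call is an adjusted p under 0.05 with edgeR, adjusted over all 16426 genes tested. Of those genes, 34.1% were higher and 36.8% were lower by the same rule, 71% in either direction. At least 2-fold higher were 5 of the 10 genes and 20.9% of all genes. In 5 of the 10 genes every *Supt6*-KO mouse lay above every control, as it did in 28.9% of all genes tested, and in none did every one lie below (31.8% of all genes). In whole skin, fewer cells of a type and less RNA per cell cannot be told apart. The median log2 fold change was 1.00 over the 10 genes and -0.07 over all genes tested.

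How the libraries are scaled moves these calls. Without composition factors, using library totals, the median over all genes was -0.76 on the log2 scale, and 2771 genes (16.9%) were higher and 8970 (54.6%) lower, against 5608 and 6050 with the TMM factors of the main test. *Nlrp3*, *Aim2*, *Pycard* and *Casp4* were higher under both scalings. *Casp1* and *Ninj1* passed with TMM and not with library totals, and *Gsdma* and *Gsdme* were then lower. Without *Supt6*-KO mouse 4, 8 of the 10 genes were higher, the same 6 with *Gsdmd* and *Gsdma*.

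**Figure D1:**
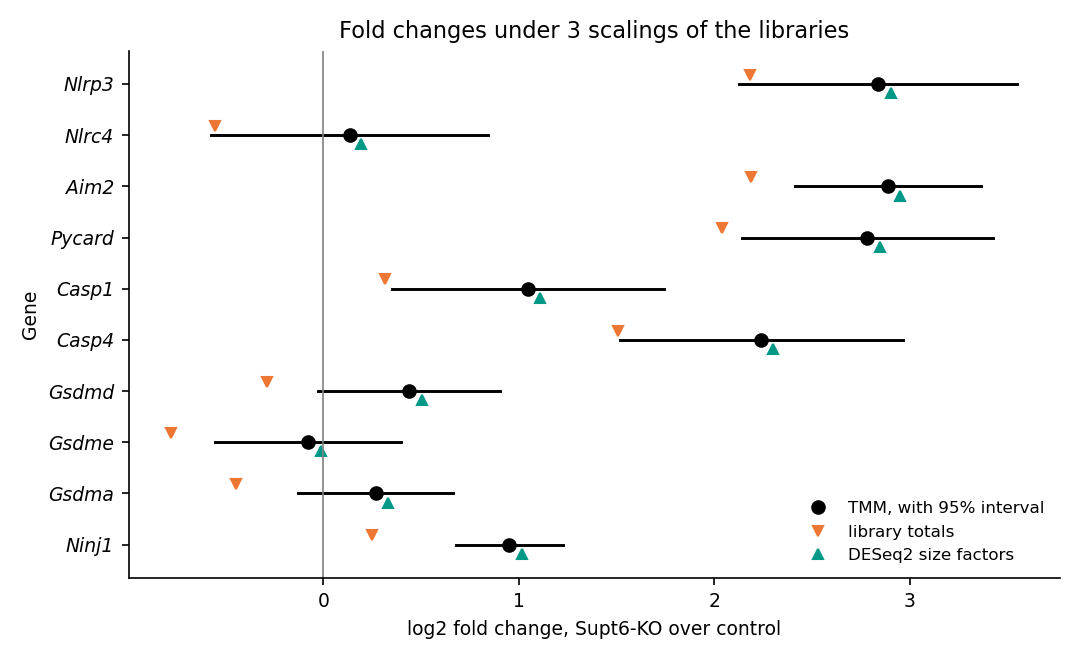
log2 fold changes of the 10 genes (x axis, *Supt6*-KO over control; genes on the y axis), with circles and bars for edgeR's estimate and 95% interval under TMM, and triangles for library totals and for DESeq2 size factors. *Nlrp3*, *Aim2*, *Pycard* and *Casp4* sit above 0 under each scaling, while *Gsdmd*, *Gsdma* and *Nlrc4* change sign with library totals.

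Of the sensors, NLRP3 responds to membrane damage and ion flux and AIM2 to cytosolic DNA, and both genes were scarce in control skin. Gene positions here and below are those of GENCODE M21 on GRCm38. *Nlrp3* (NCBI Gene 216799, chr11:59541568-59566956, forward strand) had 11, 11, 19, 19 and 13 reads across the controls, compared with 46, 38, 76 and 114 reads across the *Supt6*-KO mice. After normalisation the 5 controls averaged 0.393 ± 0.117 CPM and the 4 *Supt6*-KO mice 2.83 ± 1.13 CPM (SD). The groups did not overlap, and mice 3 and 4 were the highest of the *Supt6*-KO mice. *Nlrp3* thus rose 7.16-fold (log2 fold change 2.84, SE 0.32, edgeR adjusted p = 1.5e-05).

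*Aim2* (NCBI Gene 383619, chr1:173350879-173466040, forward strand) stood at 0.909, 1.2, 1.47, 0.892 and 1.37 CPM in the controls and at 8.9, 7.0, 11 and 7.87 CPM in the *Supt6*-KO mice. Every *Supt6*-KO mouse was thus well above every control, with a log2 fold change of 2.89 (SE 0.22, edgeR adjusted p = 1.1e-06). *Aim2* overlaps *Cadm3*, which lies on the opposite strand, and whether the counting used strand is not given in the sources used here. *Cadm3* moved the other way, with a log2 fold change of -2.41 (SE 0.31, edgeR adjusted p = 3.1e-05).

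NLRC4 senses bacterial flagellin and secretion-system proteins together with NAIP partners. *Nlrc4* (NCBI Gene 268973, chr17:74425438-74459142, reverse strand) had 8, 11, 14, 9 and 12 reads across the controls, compared with 10, 6, 7 and 7 reads across the *Supt6*-KO mice. The groups overlapped (log2 fold change 0.13, 95% interval -0.58 to 0.84, edgeR adjusted p = 0.73). At this depth a change within that interval could not be resolved.

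ASC links the sensors to caspase-1, and its gene *Pycard* (NCBI Gene 66824, chr7:127989708-127993867, reverse strand) was higher in every *Supt6*-KO mouse than in any control. *Pycard* stood at 54.1, 75.2, 90.5, 51.5 and 48.0 CPM in the controls and at 397, 573, 570 and 220 CPM in the *Supt6*-KO mice. Mouse 4 was the lowest of the *Supt6*-KO mice and still lay above the highest control. *Pycard* rose 6.89-fold (log2 fold change 2.78, SE 0.29, edgeR adjusted p = 8.1e-06).

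**Figure D2:**
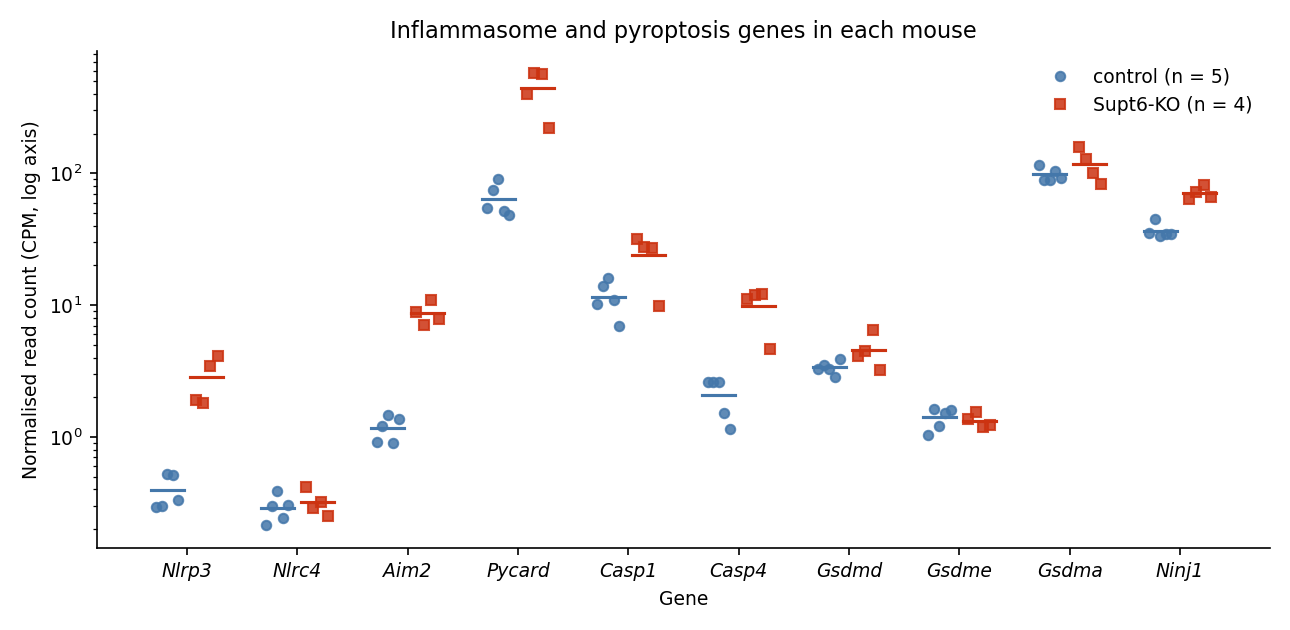
Normalised read counts (y axis, CPM on a log axis) of the 10 genes (x axis) in each mouse, with circles for the 5 controls, squares for the 4 *Supt6*-KO mice in order of number, and a line at each group's mean. The groups do not overlap for *Nlrp3*, *Aim2*, *Pycard*, *Casp4* and *Ninj1*, and the rightmost square of *Casp1*, mouse 4, lies within the control range.

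The 2 inflammatory caspase genes are neighbours on chromosome 9, with *Casp1* at 5298517 to 5307265 and *Casp4* at 5308828 to 5336783, both on the forward strand. *Casp1* stood at 10.3, 13.9, 16.0, 10.8 and 6.98 CPM in the controls and at 31.6, 27.4, 27.0 and 9.88 CPM in the *Supt6*-KO mice. Mice 1, 2 and 3 were above every control, and mouse 4 lay within the control range. The log2 fold change was 1.05 (SE 0.32, edgeR adjusted p = 0.011), and 1.3 without mouse 4.

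*Casp4* stood at 2.62, 2.6, 2.6, 1.51 and 1.15 CPM in the controls and at 11, 11.8, 12.2 and 4.67 CPM in the *Supt6*-KO mice. All 4 *Supt6*-KO mice lay above every control, mouse 4 by the smallest margin. *Casp4* rose 4.73-fold (log2 fold change 2.24, SE 0.33, edgeR adjusted p = 9.3e-05), and the log2 fold change was 2.48 without mouse 4.

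*Casp4* also rose relative to *Casp1* within each library, a ratio that does not depend on library scaling. *Casp4* read counts were 25.5%, 18.7%, 16.3%, 14.0% and 16.4% of *Casp1* read counts in the controls and 34.9%, 43.3%, 45.0% and 47.3% in the *Supt6*-KO mice. The log2 ratio was -2.48 ± 0.33 (SD, n = 5) against -1.24 ± 0.19 (SD, n = 4), a difference of 1.24 (exact permutation test, two-sided, p = 0.016). That is the smallest p that 5 mice against 4 allow. The ratio is one of read counts and does not give the relative number of transcripts. Mouse 4, low for both caspase genes, had the highest ratio.

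Gasdermin D is the pore-forming substrate shared by both caspases. *Gsdmd* (NCBI Gene 69146, chr15:75862327-75867408, forward strand) stood at 3.29, 3.53, 3.29, 2.84 and 3.87 CPM in the controls and at 4.09, 4.51, 6.49 and 3.2 CPM in the *Supt6*-KO mice. Mice 1, 2 and 3 were above every control and mouse 4 was not. The log2 fold change of 0.44 did not pass the test (95% interval -0.03 to 0.91, edgeR adjusted p = 0.083). It passed without mouse 4 (0.58, edgeR adjusted p = 0.018) and in DESeq2 (0.50, adjusted p = 0.037), was 0.22 without mouse 3 (edgeR adjusted p = 0.34), and was -0.29 with library totals.

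Gasdermin A is the gasdermin best known from skin and is activated by a streptococcal protease. *Gsdma* (NCBI Gene 57911, chr11:98664351-98677708, forward strand) stood at 116, 88.4, 89.6, 103 and 92.4 CPM in the controls and at 159, 129, 101 and 82.4 CPM in the *Supt6*-KO mice. The groups overlapped on both sides, with mice 1 and 2 above every control and mouse 4 below every control. Its log2 fold change was 0.27 (95% interval -0.13 to 0.66, edgeR adjusted p = 0.20). Its estimated counts were not whole in 3 of the 9 mice, and those of the other 9 members were whole throughout. The log2 ratio of *Gsdmd* to *Gsdma* was -4.86 ± 0.28 (SD, n = 5) against -4.68 ± 0.55 (SD, n = 4), a difference within the spread between mice (exact permutation test, two-sided, p = 0.65).

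Gasdermin E is a further pore-forming gasdermin. *Gsdme* (NCBI Gene 54722, chr6:50188888-50263862, reverse strand) ranged from 1.04 to 1.64 CPM in the controls and from 1.19 to 1.54 CPM in the *Supt6*-KO mice, all of which lay inside the control range. The log2 fold change was -0.08 (95% interval -0.55 to 0.40, edgeR adjusted p = 0.76), and -0.78 with library totals (edgeR adjusted p = 0.0091). *Gsdme* overlaps *Mpp6* on the opposite strand, which had a log2 fold change of 1.00 (SE 0.17, edgeR adjusted p = 0.00024) that did not pass with library totals (0.35, edgeR adjusted p = 0.19).

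*Ninj1*, the membrane-rupture gene (NCBI Gene 18081, chr13:49187485-49196244, forward strand), stood at 35.5, 45.3, 33.6, 34.5 and 34.7 CPM in the controls and at 63.5, 72.3, 81.8 and 66.6 CPM in the *Supt6*-KO mice. The groups did not overlap, and the *Supt6*-KO mice varied little. *Ninj1* rose 1.93-fold (log2 fold change 0.95, SE 0.12, edgeR adjusted p = 3.7e-05). It was 0.25 with library totals and did not pass there (edgeR adjusted p = 0.10).

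Levels can be compared between genes on the authors' TPM scale, which divides by transcript length, and this is given for the 5 controls. *Ninj1* had 70.1 ± 8.11 TPM, *Gsdma* 64.9 ± 11.8 TPM and *Pycard* 54.6 ± 10.4 TPM (SD, n = 5), and the control ranges of these neighbours overlapped. *Casp1* followed at 15 ± 3.04 TPM, below and above its neighbours without overlap. *Gsdmd* (3.69 ± 0.758 TPM) and *Casp4* (2.89 ± 0.769 TPM) overlapped, as did *Gsdme* (1.24 ± 0.311 TPM) and *Aim2* (0.836 ± 0.222 TPM). The sensors *Nlrp3* (0.172 ± 0.0482 TPM) and *Nlrc4* (0.130 ± 0.0283 TPM) were lowest and also overlapped. On this scale the adaptor stood above each of the 3 sensors without overlap.

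Lists of 67 further genes of the same pathways were read off the same test, and 65 of them were tested. Of these, 35 were higher and 16 lower, with a median log2 fold change of 0.77, beside 34.1% higher, 36.8% lower and a median of -0.07 over all genes tested. Without *Supt6*-KO mouse 4 there were 34 higher and 16 lower. With library totals 17 were higher and 25 lower, beside 16.9% and 54.6% of all genes. The counts of each list below stand beside these same shares of all genes. Genes are named from each list by the size of their change among those called.

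Of the 6 genes of the cytokine list, which holds caspase substrates, related alarmins and 2 antagonists, 5 were higher and none was lower. The higher genes included both antagonists. *Il1rn*, which blocks the IL-1 receptor, had a log2 fold change of 0.90 (edgeR adjusted p = 0.00045). *Il18bp*, which binds IL-18, had one of 1.01 (edgeR adjusted p = 0.008). Before scaling, *Il1rn* had 2879 to 3394 counts in the controls and 2890 to 5137 in the *Supt6*-KO mice. *Il18bp* had 15 to 28 counts against 22 to 33, so the unscaled counts overlapped for both antagonists. *Il1b*, the precursor of IL-1β, had 33, 29, 17, 12 and 13 reads across the controls, compared with 1230, 1292, 2755 and 1864 reads across the *Supt6*-KO mice, and *Il18* had 1254 to 1785 counts against 4472 to 12938. Both groups were fully separated for each gene. *Il1a*, an alarmin released from dying keratinocytes, had a log2 fold change of 1.48 (SE 0.23, edgeR adjusted p = 0.00013). The gene of this list that did not pass was *Il33*, at 1.22 (edgeR adjusted p = 0.053), which was at 0.041 without *Supt6*-KO mouse 4 (edgeR adjusted p = 0.84) and passed without mouse 3 (1.43, edgeR adjusted p = 0.038).

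Of the other gasdermins and *Ninj2*, 7 of 8 genes were tested, 6 were higher and 1 was lower. *Ninj2*, among the higher genes, had 36 reads in *Supt6*-KO mouse 4 and 3 to 5 reads in the other *Supt6*-KO mice, and did not pass without mouse 4 (log2 fold change 0.52, edgeR adjusted p = 0.35). *Gsdmc* rose most, from 893, 783, 1170, 771 and 479 counts in the controls to 8004, 7662, 8898 and 9269 counts in the *Supt6*-KO mice. The mean level was 22.2 ± 7.23 CPM in the 5 controls and 360 ± 34.9 CPM (SD) in the 4 *Supt6*-KO mice, 16.3-fold higher (log2 fold change 4.02, SE 0.24, edgeR adjusted p = 2.9e-07). Among the *Supt6*-KO mice *Gsdmc* varied little, mouse 4 included. *Gsdmc2* had a log2 fold change of 3.18 (SE 0.52, edgeR adjusted p = 0.0002). The estimated counts of *Gsdmc* and *Gsdmc2* were not whole in 8 of the 9 mice, as happens where reads are shared between copies, so how the reads fall between the 2 genes is uncertain. *Gsdma3*, a copy of *Gsdma* linked to hair follicle defects in mutant mice, was lower at -1.22 (SE 0.42, edgeR adjusted p = 0.021).

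Beside *Gsdma3*, markers of the hair inner root sheath and shaft were lower for 8 of 9 genes. Of all genes tested, 36.8% were lower, or 54.6% with library totals. The summed level of the hair markers ranged from 5.78 to 2067 CPM in the controls and from 16.0 to 73.8 CPM in the *Supt6*-KO mice. *Krt71* was the most abundant in the controls (mean 212 CPM, against 0.488 CPM in the *Supt6*-KO mice). *Tchh*, the gene not called, was the most abundant in the *Supt6*-KO mice (mean 48.2 CPM, against 102 CPM in the controls). Control 5 had 0.840 CPM of *Gsdma3*, the lowest of the controls and above the highest *Supt6*-KO mouse (0.794 CPM). Its hair marker sum lay below those of all *Supt6*-KO mice, whose sums were mostly *Tchh*. *Tchh* stood at 3.08 CPM in control 5 and at 13.8, 45.2, 61.4 and 72.2 CPM in the *Supt6*-KO mice, so the order of these sums rests on this gene. The part of hair follicle content in the *Gsdma3* result was not tested.

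**Figure D3:**
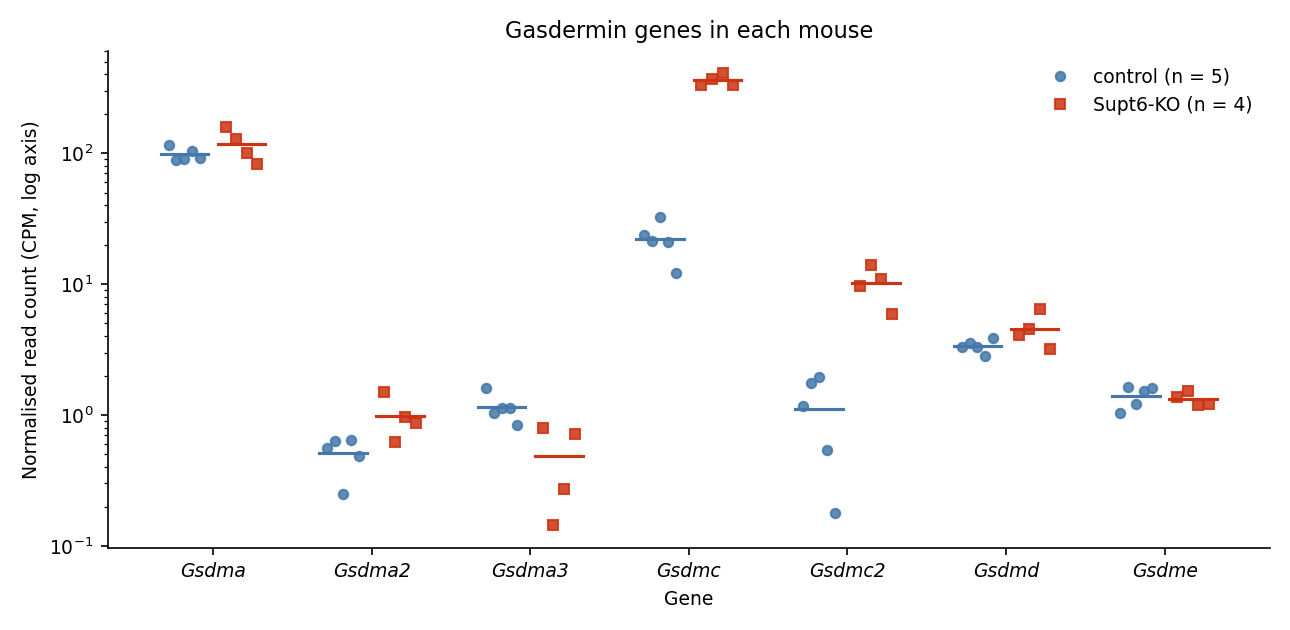
Normalised read counts (y axis, CPM on a log axis) of 7 gasdermin genes (x axis) in each mouse, with circles for the 5 controls, squares for the 4 *Supt6*-KO mice and a line at each group's mean. *Gsdmc* and *Gsdmc2* are higher in every *Supt6*-KO mouse and *Gsdma3* is lower in every one, whereas *Gsdma*, *Gsdmd* and *Gsdme* overlap.

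Of the 16 further sensor genes tested, 6 were higher and 5 lower, shares near those of all genes (34.1% and 36.8%). *Mefv*, encoding pyrin, rose 7.41-fold, with 0.414 ± 0.186 CPM in the 5 controls and 3.11 ± 0.535 CPM (SD) in the 4 *Supt6*-KO mice. *Zbp1*, a sensor of Z-form nucleic acids, had a log2 fold change of 2.55 and *Ifi204*, a relative of *Aim2*, one of 1.5. The adjusted p of these 3 genes was 8.9e-06, 0.00011 and 1.1e-05 in edgeR. *Nlrc3*, *Nlrc5* and *Nod1* were lower, with log2 fold changes of -1.23, -1.20 and -0.84. Estimated counts of *Ifi204* and *Nlrc3* were not whole in any of the 9 mice, so their share of reads is uncertain. NOD1 detects bacterial peptidoglycan and signals to NF-κB, and NLRC5 is a transactivator of MHC class I genes.

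Of 15 regulators, 7 were higher and 3 lower. *Gbp2*, an interferon-induced GTPase that helps expose cytosolic bacteria, had a log2 fold change of 1.85 (edgeR adjusted p = 0.0028), with mouse 4 the lowest of the *Supt6*-KO mice and within the control range. *Pstpip1*, a pyrin-binding protein, had one of 1.69 and *Serpinb1a*, an inhibitor of neutrophil proteases and inflammatory caspases, one of 1.46 (edgeR adjusted p = 2e-05 and 3.1e-06). *Txnip*, a thioredoxin-binding protein that has been linked to NLRP3, was lower in every *Supt6*-KO mouse than in any control, with 1398 ± 386 CPM in the 5 controls and 308 ± 110 CPM (SD) in the 4 *Supt6*-KO mice. *Dpp9* and *Dpp8*, proteases that restrain NLRP1, had log2 fold changes of -1.27 and -0.54. *Nek7*, which NLRP3 needs for assembly, was at 0.21 and did not pass (edgeR adjusted p = 0.17).

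Of 11 apoptotic and necroptotic effectors, 7 were higher and 1 was lower. *Casp14*, the caspase of cornifying keratinocytes, rose 11.4-fold (log2 fold change 3.51, edgeR adjusted p = 6.8e-08). It takes part in terminal differentiation rather than in inflammation. *Mlkl*, the necroptosis pore gene, rose 4.41-fold (edgeR adjusted p = 7.4e-05). *Casp9*, the initiator of the mitochondrial pathway, was lower at -0.96 (edgeR adjusted p = 2.9e-05).

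Of 10 genes of NF-κB signaling, the pathway that primes inflammasome genes, 4 were higher and 6 lower. Of all genes tested, 34.1% were higher and 36.8% lower, or 16.9% and 54.6% with library totals. The receptor gene *Tlr2*, the IκBζ gene *Nfkbiz* and the adaptor gene *Myd88* had log2 fold changes of 1.5, 1.17 and 0.86. *Rela*, *Nfkb2* and *Relb*, which encode NF-κB subunits, had -1.36, -1.35 and -0.88. *Rela* stood at 54.0 ± 8.10 CPM (SD, n = 5) in the controls and 21.1 ± 7.68 CPM (SD, n = 4) in the *Supt6*-KO mice. With library totals *Myd88* was at 0.20 and did not pass (edgeR adjusted p = 0.38).

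**Figure D4:**
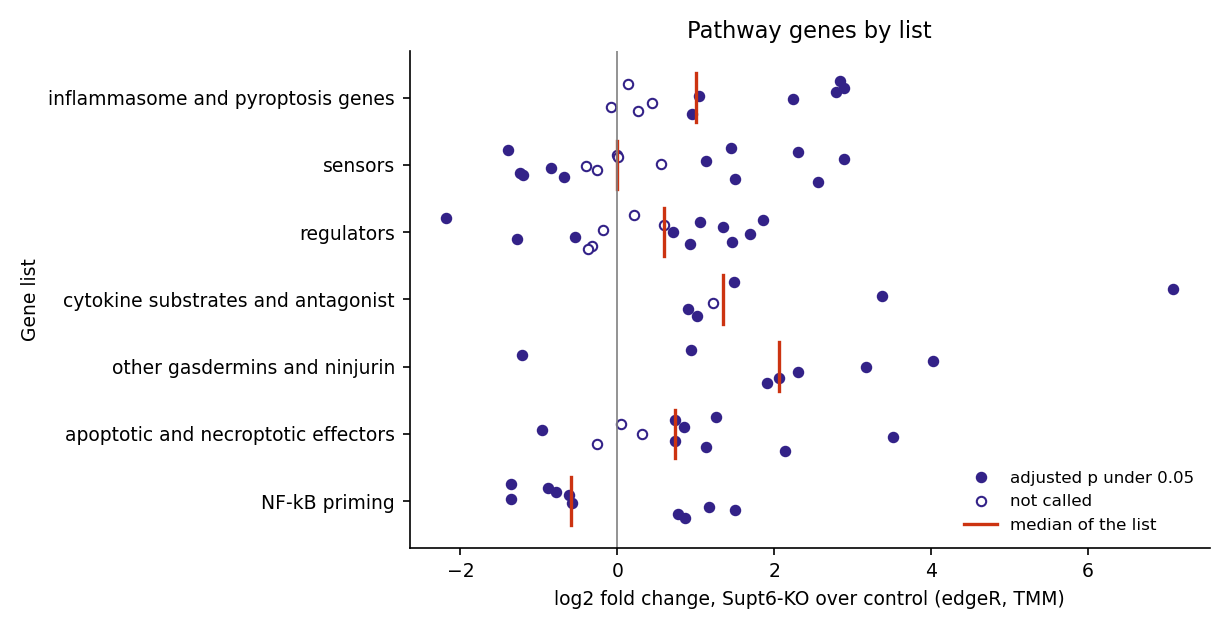
log2 fold changes (x axis, *Supt6*-KO over control) of single genes in each list (y axis), with filled points for adjusted p under 0.05, open points for genes not called and a line at the list's median. The cytokine and gasdermin lists lie mostly to the right of 0, and the sensor and NF-κB lists spread to both sides.

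Immune cells express inflammasome genes strongly, and their marker lists moved in both directions. The counts of markers below stand beside 34.1% of all genes higher and 36.8% lower, or 16.9% and 54.6% with library totals. Of 12 macrophage and monocyte markers, 9 were higher and 2 lower, and their summed level was 293 to 535 CPM in the controls and 832 to 1298 CPM in the *Supt6*-KO mice. *Lyz2* (lysozyme) was the most abundant in the *Supt6*-KO mice, with a log2 fold change of 2.79, whereas *Csf1r*, the receptor gene for the macrophage growth factor CSF1, was lower at -1.83 (edgeR adjusted p = 5.1e-05). Of 12 neutrophil markers, 10 were higher and 1 lower, with sums of 78.0 to 127 CPM against 135 to 371 CPM. *Il1r2* was the most abundant in both groups and did not pass (log2 fold change 0.49, edgeR adjusted p = 0.15), but passed without *Supt6*-KO mouse 4 (0.75, edgeR adjusted p = 0.0011) and was at -0.26 with library totals (edgeR adjusted p = 0.34). *Ltf* had 0 counts in every control, *Ly6g* had at most 15 counts in any mouse, and *Mpo* was the lower gene, with 4, 10, 10, 26 and 16 counts in the controls and 1, 0, 0 and 0 in the *Supt6*-KO mice (edgeR adjusted p = 0.00095).

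The other immune lists summed to less in *Supt6*-KO skin. The 8 Langerhans and dendritic cell markers, 5 of them lower and 1 higher, summed to 617 to 766 CPM in the controls and 60.0 to 219 CPM in the *Supt6*-KO mice, and the 7 T cell markers, 3 lower and 2 higher, shares near those of all genes, to 27.8 to 37.5 CPM against 14.4 to 21.3 CPM. *Cd74* and *Cd3g* led these lists in the controls, and *H2-Ab1* and *Cd5* in the *Supt6*-KO mice, where *Cd5* was higher (8.63 against 1.68 CPM, edgeR adjusted p = 3.7e-07). Suprabasal keratinocyte markers summed to 18125 to 19791 CPM in the controls and 20438 to 42963 CPM in the *Supt6*-KO mice, with 5 of 7 genes higher and none lower. *Krt10*, the most abundant of them, did not pass (log2 fold change 0.19, edgeR adjusted p = 0.56). It was lower with library totals (-0.55, edgeR adjusted p = 0.036) and higher without *Supt6*-KO mouse 4 (0.42, edgeR adjusted p = 0.049). Basal markers, 6 of 7 lower and none higher, summed to 11643 to 13313 CPM against 5801 to 14105 CPM. The highest of these sums was that of mouse 4, which had 9613 CPM of *Krt14*. The other *Supt6*-KO mice had sums of at most 8402 CPM and at most 4730 CPM of *Krt14*. Fibroblast, sebocyte and skeletal muscle markers were lower for 4 of 7, 5 of 6 and 5 of 6 genes. The most abundant were *Col3a1*, *Fasn* and *Acta1* in the controls and *Col3a1*, *Elovl3* and *Mylpf* in the *Supt6*-KO mice. The part of these shifts in the levels of the 10 genes was not tested.

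Genes with the most similar pattern were sought among genes with a mean of at least 1 CPM, by the root mean square difference of gene-centred log2 CPM over the 9 mice. The nearest to *Pycard* were *Uqcc2* (0.088) and *Ndufa4* (0.092), both of mitochondrial respiration, and to *Ninj1* *1110038F14Rik* (0.056) and *Krtcap2* (0.079). *Casp1* was nearest to *Fxyd3* (0.141) and *H2ac18* (0.163), and *Casp4* to *Sec11c* (0.186) and *Guk1* (0.189). *Aim2* was nearest to *Aif1* (0.182), a macrophage gene, and *Ifi209* (0.197), a member of its own gene family, and *Nlrp3* to *Trim59* (0.196) and *Fgfbp3* (0.198). The 4 members that did not pass varied less, and their nearest genes were *Srpk2* for *Nlrc4*, *Clec1a* for *Gsdmd*, *Gnb4* for *Gsdme* and *Spire1* for *Gsdma*. The log2 values used CPM + 0.5, and *Nlrc4* averaged 0.290 CPM in the controls and 0.319 CPM in the *Supt6*-KO mice. Its small variation and its nearest gene therefore depend on the 0.5 added.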

How the data were processed

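RNA was taken from skin of 5 control and 4 *Supt6*-KO mice. Per the labels and methods, Bowtie2 (2.3.4.3) aligned the paired reads (mm10), and the authors deposited RSEM (1.3.1) estimated counts per gene, not scaled between mice. They also deposited TPM values for 6 of the 9 mice, used here only for levels in the controls. Of 17943 rows, 17917 were matched to RefSeq gene symbols. About 9% of estimated counts were not whole, and all were rounded. The 16426 genes with at least 10 counts summed over the mice were tested.

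Groups were compared with edgeR 4.0.16 (R 4.3.3), TMM factors and the quasi-likelihood test, with Benjamini-Hochberg adjustment. Standard errors are the absolute log2 fold change divided by the square root of F. Ratios used log2 of counts + 0.5 and an exact permutation test (scipy 1.17.1). CPM are TMM-normalised, and 3 counts correspond to 0.0764 to 0.144 CPM. The scripts were tested on simulated data in which few genes changed, in equal numbers up and down. That setting differs from these data and does not test the choice of library scaling. TMM factors were 1.20 to 1.31 in controls and 0.674 to 0.910 in *Supt6*-KO mice. P-values of edgeR set the difference between groups against variation between these mice, estimated with information shared over genes. Permutation p-values rank the observed difference among reassignments of the mice between the groups.

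Alternatives were DESeq2 1.42.0, other scalings and filters, a replicate block and each mouse left out. Named genes are *Supt6*, the 10 members, up to 3 higher and 3 lower genes per pathway list whose higher group averaged 1 CPM or more, *Il1b*, *Il18*, the most abundant marker of each list and those at 0, and the 2 genes nearest each member in pattern. *Il33*, *Il1rn*, *Il18bp*, *Nek7*, *Csf1r*, the markers leading a list in 1 group only, *Cadm3*, *Mpp6*, *Ninj2* and the promoter motifs were added after values were seen. Some list genes that this rule names are not reported here. Members and lists were chosen with earlier results of these data known.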

Additional observations from a re-analysis of the deposited data

Results flagged for a closer look

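Among 159 groups of 4 or 5 mice, a single mouse lay far from the rest of its group in 9. At 1 in 20, independent groups would give 7.95 by chance. The groups here share mice, and some genes were added after their values were seen, so the comparison of these numbers is not a test. The groups cover the genes given with values, marker sums and ratios, and leave out genes named only for a similar pattern and groups at or under 3 counts in every mouse. In 6 of the 9 the mouse was *Supt6*-KO mouse 4. It was low for *Casp4* (4.67 CPM, group median 11.4 CPM), *Krt10* (7775 CPM, median 18892 CPM) and summed suprabasal keratinocyte markers (20438 CPM, median 41471 CPM). It was high for *Il33* (401 CPM, median 76.1 CPM), *Ninj2* (1.29 CPM, median 0.198 CPM) and *Mpp6* (72.9 CPM, median 45 CPM). Control 2 had 45.3 CPM of *Ninj1* against a median of 34.7 CPM, still below every *Supt6*-KO mouse. Control 5 had 46.7 CPM of *Il33* against a median of 67.7 CPM, and control 1 had 327 CPM of *Tchh* against a median of 77 CPM.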

How the results depend on the processing

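Library totals in place of TMM factors gave 2771 higher genes over the whole table, 2 lower members (*Gsdma* and *Gsdme*), and 17 higher and 25 lower pathway genes. *Gsdma*, *Gsdmd* and *Nlrc4* then changed sign, to -0.45, -0.29 and -0.56 on the log2 scale, and *Casp1* at 0.32 no longer passed. The median of all genes moved from -0.07 to -0.76 between these scalings. The mice were left out one at a time in 9 fits, with 6 to 8 members higher, *Nlrc4* from -0.025 to 0.26 and the *Gsdmd* to *Gsdma* ratio from -0.072 to 0.37. The value of 8 came without *Supt6*-KO mouse 4. Same-numbered mice deviated with correlations of 0.013 to 0.234 over 4 pairs (mean 0.133). Mice of other numbers had -0.234 to 0.279 over 16 pairs (mean -0.028). The methods describe no pairing by number, so the main fit used no block. With the replicate block 5251 genes were higher, 5800 lower, and 6 members higher. Under DESeq2, 7 members were higher, with *Gsdmd* added. *Nlrc4* was not tested with at least 10 counts in every mouse. Of the 10 members, *Nlrc4* had the fewest counts, with 6 to 14 per mouse.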

Other observations

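*Il33*, an alarmin of barrier epithelia, stood at 67.2, 70.5, 70.9, 67.7 and 46.7 CPM in the controls. It stood at 75.9, 48.1, 76.2 and 401 CPM in the *Supt6*-KO mice, so that mice 1 and 3 were slightly and mouse 4 far above the highest control. *Ninj2*, the relative of *Ninj1*, had 4 to 6 reads in each control, compared with 4, 3, 5 and 36 reads across the *Supt6*-KO mice. Both genes were singled out after their values were seen.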
